A study of Mus musculus with 8 samples.

Results

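DEAD and DEAH box RNA helicases are enzymes that use ATP to unwind RNA or to strip proteins from it. Their transcripts were followed here by RNA sequencing of cultured satellite cells, which are the resident stem cells of muscle. Members were taken by symbol: all genes whose symbol begins with Ddx or Dhx followed by a number, Ddx3y left out. This gave 53 of the 39017 genes in the table, 37 with a Ddx and 16 with a Dhx symbol. From their known roles, 16 were counted as nucleolar and 37 as other helicases. A symbol alone does not show that a member is an RNA helicase, and Ddx11 is a DNA helicase. Cells came from diaphragm and abdominal muscle of adult Pax3GFP/+ mice, so every library carries the same reporter at 1 copy of Pax3. They were cultured for 4 days with 10 µM sal003, an inhibitor of eIF2α dephosphorylation, or with its vehicle DMSO, 4 libraries each. Whether libraries came from separate animals or cultures is not in the labels, so p-values reflect the spread among these libraries and no more.

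DEAD box proteins, named after the residues of a conserved motif, pry apart short duplexes locally, while the related DEAH box proteins can move along a strand. In the nucleolus many of them act in turn on the precursor of ribosomal RNA, where they release small nucleolar RNAs and remodel the subunits under assembly. Others drive the steps of the spliceosome, release messenger RNA at the nuclear pore, scan structured leaders during initiation of translation or sense viral RNA. Ddx5 and Ddx17 are also known as partners of the myogenic factor MyoD.

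Markers of muscle precursors and of differentiated muscle were both present in all libraries. Pax7 averaged 97.2 ± 2.54 CPM (counts scaled to the size of the library with TMM factors) in sal003 and 72.1 ± 6.74 CPM in DMSO, and Myod1 averaged 892 ± 52.3 CPM in sal003 and 896 ± 85.8 CPM in DMSO (SD, n = 4). Myog, the factor of terminal differentiation, averaged 870.3 ± 66.0 CPM in sal003 and 2634 ± 248 CPM in DMSO. Library totals ran from 37248830 to 39378523 counts in sal003 and from 32753929 to 40234107 in DMSO. DMSO replicate 2 stood apart from the other libraries. It had counts for 14437 genes, against 16561 to 18076 in the other 7 libraries, and its Spearman correlation with another DMSO library reached at most 0.949, where all other pairs within a group had 0.977 to 0.982. Counts that lead the results are therefore given with and without it.

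The sequences before the RefSeq starts of the 4 nucleolar helicases that changed are shown here, so that their letters can be read beside the values that follow. They are taken from RefSeq, assembly GRCm38.p6, written 5′ to 3′ on the strand of the gene, with capitals marking CACGTG, the E-box, or GGGCGG, the GC box, on either strand. For Ddx51 the gap to the divergent gene Noc4l is shown, which holds 33 bases. The GENCODE annotation used for gene positions starts Ddx18 and Dhx33 slightly earlier, so the last bases shown for both, the GC box of Ddx18 included, lie within the gene as annotated there. Positions are chr10:62602299-62602548 on the minus strand for Ddx21, chr1:121567981-121568230 on the minus strand for Ddx18, chr11:71004433-71004682 on the minus strand for Dhx33 and chr5:110653418-110653450 on the plus strand for Ddx51.
Ddx21: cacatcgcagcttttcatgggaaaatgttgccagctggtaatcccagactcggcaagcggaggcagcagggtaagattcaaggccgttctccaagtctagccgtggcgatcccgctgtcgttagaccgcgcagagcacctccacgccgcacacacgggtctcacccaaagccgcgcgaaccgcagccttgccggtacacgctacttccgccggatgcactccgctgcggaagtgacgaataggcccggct
Ddx18: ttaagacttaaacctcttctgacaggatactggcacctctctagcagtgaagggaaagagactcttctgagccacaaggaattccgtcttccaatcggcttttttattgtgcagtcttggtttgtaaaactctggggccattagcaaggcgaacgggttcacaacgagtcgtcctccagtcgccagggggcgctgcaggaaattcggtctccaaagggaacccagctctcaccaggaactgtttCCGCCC
Dhx33: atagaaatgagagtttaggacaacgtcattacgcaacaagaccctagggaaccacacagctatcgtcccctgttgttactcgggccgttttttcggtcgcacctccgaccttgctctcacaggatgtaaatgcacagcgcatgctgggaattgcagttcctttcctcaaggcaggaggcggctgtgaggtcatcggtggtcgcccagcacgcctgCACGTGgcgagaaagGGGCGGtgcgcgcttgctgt
Ddx51: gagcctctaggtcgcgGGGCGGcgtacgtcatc

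The stretch shown for Dhx33 holds both motifs, those of Ddx18 and Ddx51 hold the GC box at 1 place each, and that of Ddx21 holds neither. In windows that also take in the first transcribed bases, promoters could be read for 47 of the 53 helicases, with 58 promoters in all, since some genes have several starts. The GC box was found in 12 of 18 nucleolar promoters (66.7%) and 23 of 40 promoters of other helicases (57.5%), against 35.7% of 32851 promoters of all genes. Ddx21 is counted among those 12 through a match outside the stretch shown. The E-box was found in 1 of 18 nucleolar promoters (5.56%), that of Dhx33, in 6 of 40 others (15%) and in 7.15% of all. TTCCGG, the core of an ETS site, was found in 10 of 18 nucleolar promoters (55.6%), in 15 of 40 others (37.5%) and in 14.9% of all. For each motif the share of all promoters takes in genes that were not tested here. Shares among tested genes alone are not given, so an excess over all promoters is not shown to be particular to helicases. TTCCGG and GGGCGG can share up to 2 bases, and both strands were read for each motif. Of 13 promoters of the 11 matched helicases that rose, 9 held the GC box (69.2%). For the 36 matched helicases not called higher, 26 of 45 promoters held it (57.8%). Those 36 include Ddx4 and Ddx43, which were not tested, and Ddx51, which fell. For TTCCGG the shares were 4 of 13 (30.8%) against 21 of 45 (46.7%). These matches describe the letters of the windows and are not sites of binding.

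Helicase transcripts were more often higher than lower in sal003. Of the 50 helicases that passed the filter on low counts, 13 rose, 1 fell and 36 did not pass the test (edgeR's quasi-likelihood test, two-sided, Benjamini-Hochberg adjusted p below 0.05 over all 15816 genes tested). That is 26% higher and 2% lower, where 10.6% of all tested genes were higher and 12.2% lower, 22.7% in all. Here and below, the shares of all tested genes were not matched to the helicases or lists for level of expression. The median log2 fold change of the helicases was 0.15, with a range of -0.75 to 0.89, and 37 of 50 estimates were positive. Over all tested genes the median was -0.0034, and the percentiles 5 and 95 were -1.75 and 1.12, so all helicase estimates lay between them. Sal003 and DMSO libraries were separate, without overlap, at 15 helicases that were higher and 1 that was lower; this was so for 26.8% of all tested genes, 13.1% higher and 13.7% lower. Tested against a change of 1.5-fold, edgeR called 0 helicases higher and 0 lower, where 1.68% of all genes were higher and 4.66% lower. At an unadjusted p below 0.05 that test gave 3 helicases higher, Ddx11, Ddx21 and Ddx26b, and 1 lower, Ddx51; it was not run in DESeq2 or limma. With a filter of at least 10 CPM in 4 libraries, 13 helicases were higher and 2 lower, with 1590 and 1859 of all genes. Without DMSO replicate 2, 14 helicases were higher and 2 lower, with 2219 and 2252 of all genes. Without sal003 replicate 1, 8 helicases and 1270 of all genes were higher, and without sal003 replicate 2, 8 helicases and 1288 of all genes, where the whole set of libraries gave 13 and 1671.

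Among nucleolar helicases Ddx21, Ddx18 and Dhx33 rose and Ddx51 fell, while among the others the calls were toward higher values. Of 16 nucleolar helicases 3 rose (18.8%), 1 fell (6.25%) and 12 did not pass. Of 34 other helicases tested 10 rose (29.4%), 0 fell in edgeR and 24 did not pass. Without sal003 replicate 1 or 2, 5 of the others were higher, and without sal003 replicate 3, 6, while 3 nucleolar helicases were higher in each of these fits. Without DMSO replicate 2, 4 nucleolar helicases were higher and 1 lower, and 10 of the others higher and 1 lower. At an unadjusted p below 0.05, 12 of the others were higher and 1 lower, and 4 nucleolar helicases higher and 2 lower. Of all 15816 genes, 2444 were higher and 2600 lower at that threshold. Among the other helicases DESeq2 called 0 lower and limma-voom 1, which was Ddx17. Both methods called 1 nucleolar helicase lower. The medians were 0.16 for nucleolar and 0.13 for other helicases, and 0.14 for the nucleolar ones without Ddx21. Their order turned without DMSO replicate 2 (0.11 for nucleolar and 0.18 for other helicases), DMSO replicate 1 (0.13 and 0.23), sal003 replicate 1 (0.156 and 0.158) or sal003 replicate 2 (0.14 and 0.18), and with limma-voom (0.11 and 0.17). Without sal003 replicate 3 they were 0.14 and 0.081, so these medians do not order the classes. The difference between the classes was not tested. In bulk samples fewer cells of a type and less RNA per cell cannot be told apart, and this holds for each value here.

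**Figure D1:**
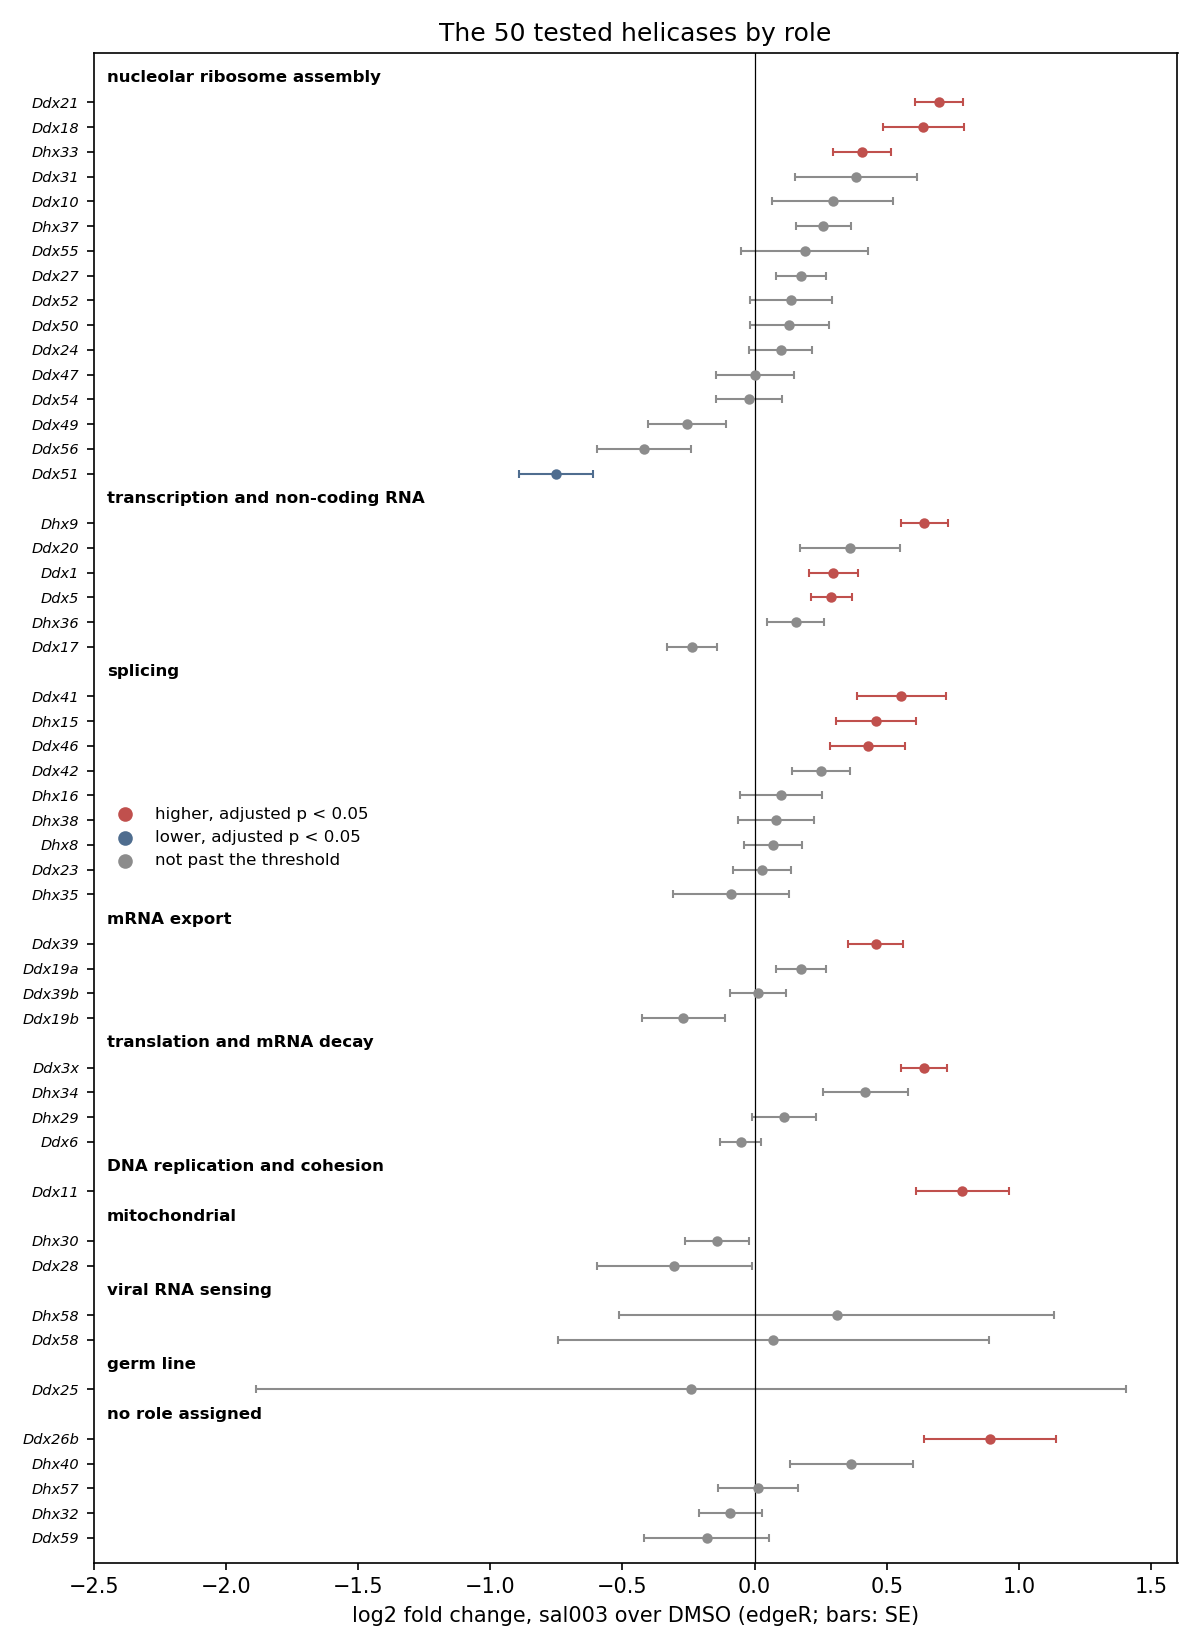
Log2 fold change of sal003 over DMSO for each tested helicase, grouped by role, with bars for the SE; red points were called higher, the blue point lower and grey points did not pass the edgeR test. Ddx21, Ddx18 and Dhx33 lie right of 0 among the nucleolar members and Ddx51 lies left at -0.75, while the called members of the other roles lie to the right.

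Summed over members, the nucleolar class took 1463 ± 68.3 CPM in sal003 and 1208 ± 47.9 CPM in DMSO (SD, n = 4). The lowest sal003 library had 1392 CPM and the highest DMSO library 1267 CPM, so these sums did not overlap. Without Ddx21 the class stood at 952 ± 33.9 CPM in sal003 and 893 ± 24.1 CPM in DMSO, and the ranges of 915 to 981 CPM and 872 to 926 CPM overlapped. Other helicases summed to 4927 ± 101 CPM in sal003 and 4134 ± 183 CPM in DMSO, with no overlap. Before scaling, all 53 helicases took 0.679% ± 0.0243 of the counts in sal003 libraries and 0.502% ± 0.0177 in DMSO libraries. The sums are led by a few abundant genes and carry no test. The median log2 CPM of the nucleolar class was 5.73 to 5.87 in sal003 libraries and 5.85 to 5.98 in DMSO libraries. For other helicases it was 6.14 to 6.19 in sal003 and 6.04 to 6.18 in DMSO. These medians overlapped between the groups, so the sums do not show that either class rose as a whole.

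Ddx21, a nucleolar helicase that acts in both transcription and processing of ribosomal RNA, had the lowest p of all members with the whole set of libraries in edgeR. It is annotated on chromosome 10 of mm10 from 62580251 to 62602281, minus strand. It had 571.5, 493, 502 and 477 CPM in sal003, against 279.7, 299.7, 341.5 and 338 CPM in DMSO. The lowest sal003 library stood well above the highest DMSO library. The mean was 511 ± 41.7 CPM in sal003 and 315 ± 30.1 CPM in DMSO. Sal003 was 1.62-fold higher, at 0.70 ± 0.09 on the log2 scale (the error is the SE; edgeR adjusted p = 3.24e-05).

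Ddx18, whose yeast counterpart Has1 is needed for both ribosomal subunits, lies on chromosome 1 from 121553835 to 121567989, minus strand. It had 46.9, 42.3, 41.7 and 41.8 CPM in sal003, against 30.0, 30.8, 20.7 and 29.4 CPM in DMSO. The sal003 libraries were close to each other and above all DMSO libraries, of which replicate 3 was lowest. The log2 fold change was 0.64 ± 0.15 (edgeR adjusted p = 0.00581). Dhx33, which promotes synthesis of ribosomal RNA in the nucleolus, lies on chromosome 11 from 70984091 to 71004437, minus strand. It had 89.2, 90.8, 88.6 and 77.7 CPM in sal003, against 72.7, 68.9, 59.3 and 60.2 CPM in DMSO. The groups came near each other but did not overlap, and the log2 fold change was 0.41 ± 0.11 (edgeR adjusted p = 0.0128).

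Ddx51 was the member that fell. It acts late in the making of the large subunit, where it helps free the U8 small nucleolar RNA from the precursor. It lies on chromosome 5 from 110653451 to 110660496, plus strand. It had 37.5, 44.8, 40.0 and 43.4 CPM in sal003, against 66.75, 86.5, 69.96 and 55.6 CPM in DMSO. Every sal003 library was below every DMSO library, and DMSO replicate 2 was the highest of the 8. The level in sal003 was 0.594 of that in DMSO, or -0.75 ± 0.14 as a log2 fold change (edgeR adjusted p = 0.000852). Without DMSO replicate 2 it was -0.62 (adjusted p = 0.000474). Noc4l, a factor of the small subunit processome whose gene starts 33 bases away on the opposite strand, had the other direction. It averaged 22.5 ± 3.65 CPM in sal003 and 14.7 ± 1.51 CPM in DMSO, or 0.61 ± 0.19 on the log2 scale (edgeR adjusted p = 0.0294). It was singled out after its value was seen.

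The other 12 nucleolar helicases did not pass the test, with log2 fold changes between -0.42 and 0.38. Dhx37, which releases the U3 small nucleolar RNA from the precursor, had 74.8, 84.5, 88.05 and 77.3 CPM in sal003, against 72.5, 66.6, 67.35 and 64.6 CPM in DMSO. The groups did not overlap, but the log2 fold change of 0.26 ± 0.10 gave an edgeR adjusted p of 0.0891. Ddx56, related to the large subunit factor Dbp9 of yeast, averaged 33.6 ± 4.36 CPM in sal003 and 44.9 ± 11.2 CPM in DMSO. Its log2 fold change was -0.42 ± 0.18 (edgeR adjusted p = 0.111), and -0.54 (adjusted p = 0.0268) without DMSO replicate 4. Ddx31, the counterpart of yeast Dbp7, averaged 27.4 ± 7.16 CPM in sal003 and 20.99 ± 5.75 CPM in DMSO, with groups that overlapped (0.38 ± 0.23, adjusted p = 0.287). Without DMSO replicate 2 its estimate was 0.57 (adjusted p = 0.0483).

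Ddx27, counterpart of the yeast large subunit factor Drs1, had an estimate of 0.18 (adjusted p = 0.219). Ddx49, the relative of yeast Dbp8, had -0.26 (adjusted p = 0.260). The exons of Ddx49 overlap Homer3 on the opposite strand over 29.9% of their bases, and the sources used here give no strand setting for the counting. Homer3 averaged 19.7 ± 5.34 CPM in sal003 and 26.0 ± 4.63 CPM in DMSO, with an estimate of the same sign (-0.40 ± 0.21, edgeR adjusted p = 0.205). Ddx10, related to yeast Dbp4, which frees small nucleolar RNAs, averaged 81.5 ± 15.9 CPM in sal003 and 66.4 ± 20.7 CPM in DMSO (0.30 ± 0.23, adjusted p = 0.442). Ddx24, Ddx52, Ddx54, Ddx55 and Ddx47, relatives of the yeast assembly factors Mak5, Rok1, Dbp10, Spb4 and Rrp3, had log2 fold changes between -0.02 and 0.19 and adjusted p between 0.624 and 0.994. Relatives of factors for the small and for the large subunit both stand among the members that did not pass.

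Helicases of transcription and non-coding RNA had the highest median of the roles with more than 1 tested member, at 0.29, and 3 of the 6 rose. Over all tested genes 10.6% were higher and 12.2% lower, the shares to set beside this and the following roles. Dhx9, also called RNA helicase A, resolves structured RNA during transcription. It lies on chromosome 1 from 153455758 to 153487660, minus strand. It had 467, 428, 444 and 454 CPM in sal003, against 279.7, 249.2, 292.5 and 327 CPM in DMSO. The sal003 libraries lay together far above those in DMSO, and the log2 fold change was 0.64 ± 0.09 (edgeR adjusted p = 6.27e-05).

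Ddx5, or p68, is a coregulator of transcription and a partner of the microRNA processor Drosha. It had 794, 729, 730.0 and 741 CPM in sal003, against 583, 671, 572 and 623 CPM in DMSO. The groups did not overlap, although the change was small, at 0.29 ± 0.08 on the log2 scale (edgeR adjusted p = 0.0127; 0.0579 without sal003 replicate 1). Its close relative Ddx17, or p72, had 329, 274.5, 304 and 268 CPM in sal003, against 389.9, 310.2, 341 and 345 CPM in DMSO. Sal003 replicate 1 lay within the range of DMSO, and the log2 fold change of -0.24 ± 0.09 did not pass (edgeR adjusted p = 0.0881). It passed toward lower values without DMSO replicate 2 (-0.28, adjusted p = 0.0141), with limma-voom (adjusted p = 0.0120) and with the stricter filter on counts (adjusted p = 0.0305).

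Ddx1, a part of the tRNA ligase complex, had 252, 243, 236 and 234 CPM in sal003, against 180.2, 173, 211 and 221 CPM in DMSO. The groups did not overlap, and the log2 fold change was 0.30 ± 0.09 (edgeR adjusted p = 0.0302). Its call did not hold without DMSO replicate 1 or without any 1 of the sal003 libraries, with adjusted p between 0.0534 and 0.0961. Ddx20, also called Gemin3, works with the SMN complex in assembly of small nuclear ribonucleoproteins. It averaged 37.4 ± 10.8 CPM in sal003 and 29.1 ± 2.86 CPM in DMSO and did not pass (adjusted p = 0.209). Dhx36, which unfolds G-quadruplexes, averaged 76.0 ± 6.05 CPM in sal003 and 68.2 ± 5.34 CPM in DMSO (adjusted p = 0.377).

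Of 4 helicases of translation and mRNA decay, Ddx3x rose and 3 did not pass. Ddx3x, which aids initiation on messenger RNAs with structured leaders, lies on the X chromosome from 13280970 to 13294052, plus strand. It had 539, 548, 512 and 521 CPM in sal003, against 347, 288.5, 362 and 362 CPM in DMSO. No DMSO library came near the lowest sal003 library. The log2 fold change was 0.64 ± 0.09 (edgeR adjusted p = 4.71e-05), 1.56-fold. Dhx34, a factor of nonsense-mediated decay, had 26.2, 28.2, 31.3 and 24.5 CPM in sal003, against 21.6, 17.8, 21.1 and 21.9 CPM in DMSO. The groups did not overlap, and the log2 fold change of 0.42 ± 0.16 did not pass (edgeR adjusted p = 0.0779). Dhx29, which acts on the small subunit during initiation, had 0.11 ± 0.12 (adjusted p = 0.611). Ddx6, an activator of decapping and a core protein of P-bodies, averaged 294 ± 6.08 CPM in sal003 and 305 ± 18.8 CPM in DMSO. The difference of -0.05 ± 0.08 on the log2 scale did not pass (adjusted p = 0.729).

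Among 9 splicing helicases 3 rose, Ddx41, Ddx46 and Dhx15, and 6 did not pass. Ddx41, a protein of the late spliceosome that is also known as a sensor of DNA, had 72.97, 65.4, 57.99 and 55.1 CPM in sal003, against 52.1, 29.1, 49.1 and 40.8 CPM in DMSO. The groups came within a few CPM of each other without overlap, and the log2 fold change was 0.56 ± 0.17 (edgeR adjusted p = 0.0244). It was lost without sal003 replicate 1 (0.0914), sal003 replicate 2 (0.0645) or DMSO replicate 4 (0.0506). Ddx46, the counterpart of yeast Prp5, which acts as the branch site is chosen, had 185, 180.2, 176 and 171 CPM in sal003, against 145, 87.3, 151 and 146 CPM in DMSO. DMSO replicate 2 was far below the other 7 libraries. The log2 fold change of 0.43 ± 0.14 (edgeR adjusted p = 0.0401) was 0.28 without that library (adjusted p = 0.00901).

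Dhx15, the counterpart of yeast Prp43, takes spent spliceosomes apart and, in yeast, also works in ribosome assembly. It had 481, 479, 485 and 467 CPM in sal003, against 346, 225.5, 409.7 and 409 CPM in DMSO. DMSO replicate 2 was again lowest, and the groups did not overlap. The log2 fold change of 0.46 ± 0.15 (edgeR adjusted p = 0.0432) was 0.31 without that library (adjusted p = 0.00270). Ddx46 was lost without any 1 of the sal003 libraries, with adjusted p up to 0.0993. Dhx15 was lost in those fits and without DMSO replicate 1, with adjusted p up to 0.0996. Of the 6 that did not pass, Ddx42, a partner of the SF3B complex, had 0.25 ± 0.11 (adjusted p = 0.130). Dhx8, Dhx16, Dhx38, Dhx35 and Ddx23, most of them motors of single steps of splicing, had estimates between -0.09 and 0.10.

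Of 4 export helicases Ddx39 rose and 3 did not pass. Ddx39, or URH49, belongs to the group of proteins that load export factors on messenger RNA and lies on chromosome 8 from 83715177 to 83726892, plus strand. It had 134, 160.4, 136 and 140.2 CPM in sal003, against 113, 100.4, 90.1 and 112 CPM in DMSO. The sal003 libraries were all above those in DMSO, and the log2 fold change was 0.46 ± 0.10 (edgeR adjusted p = 0.00401). Its exons overlap Adgre5, listed as Cd97 in the table, on the opposite strand over 17.4% of their bases. Cd97 moved the other way, at 153 ± 7.75 CPM in sal003 and 188 ± 24.7 CPM in DMSO (-0.29 ± 0.10, edgeR adjusted p = 0.0461). Ddx39b, or UAP56, the close relative of Ddx39, averaged 298 ± 14.3 CPM in sal003 and 295 ± 47.4 CPM in DMSO (0.01 ± 0.10, adjusted p = 0.960).

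Ddx11 is a DNA helicase with the same symbol stem, needed for cohesion of sister chromatids. It had 46.7, 49.0, 42.8 and 46.3 CPM in sal003, against 35.4, 18.2, 26.2 and 27.5 CPM in DMSO. The groups did not overlap, and at 1.72-fold its log2 fold change was 0.79 ± 0.18 (edgeR adjusted p = 0.00379). Without DMSO replicate 2, the lowest library, the estimate was 0.65 (adjusted p = 0.00105). Ddx26b, which the reference tables now name Ints6l, had 11.5, 12.7, 12.7 and 11.4 CPM in sal003, against 8.08, 6.29, 5.08 and 6.63 CPM in DMSO. It had the highest estimate of all members at 0.89 ± 0.25 (edgeR adjusted p = 0.0169), at a low level and without overlap of the groups. The call was lost without sal003 replicate 2 (0.0541) or 3 (0.0517). Both Ddx11 and Ddx26b entered by symbol and are counted among the 13 helicases that rose. That Ddx26b is an RNA helicase was not shown here, and counts without both genes are not given. The other members without an assigned role, Dhx40, Ddx59, Dhx32 and Dhx57, had estimates between -0.18 and 0.37 and did not pass.

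**Figure D2:**
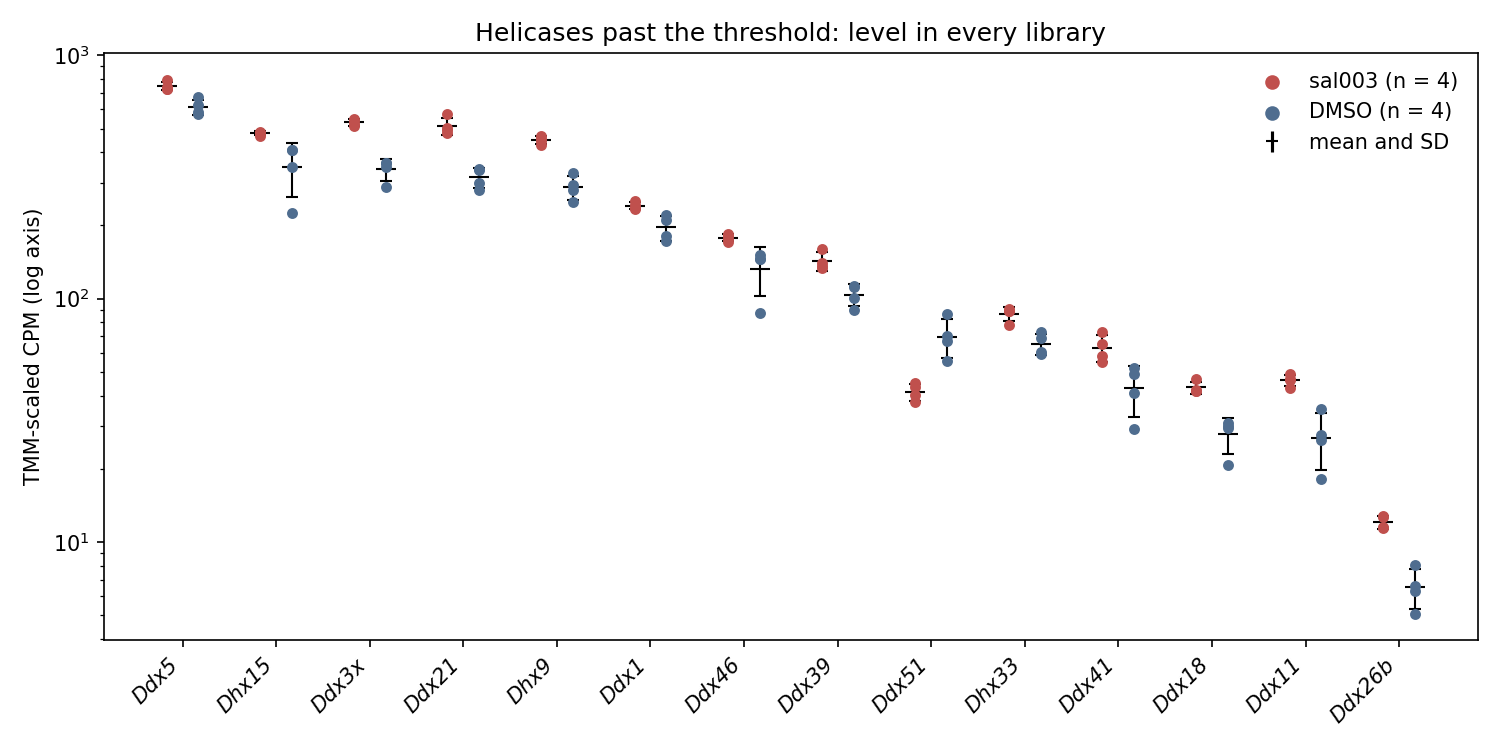
CPM on a log axis in each library for the 14 helicases that passed the test, sal003 left of DMSO, with the mean and SD of each group (n = 4). Points of the groups do not overlap for any of these genes, Ddx51 is the one with lower values in sal003, and the lowest DMSO point of Ddx46 and of Dhx15 is replicate 2.

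Both mitochondrial helicases, factors of assembly of the mitochondrial ribosome, had negative estimates that did not pass: Dhx30 had -0.14 ± 0.12 (adjusted p = 0.488) and Ddx28 had -0.30 ± 0.29 (adjusted p = 0.552). The sensors of viral RNA were near the limit of detection. Ddx58, or RIG-I, had 192, 72, 116 and 6 counts in sal003, against 28, 62, 94 and 134 counts in DMSO. Dhx58, or LGP2, which tunes RIG-I signalling, had 54, 92, 106 and 20 counts in sal003, against 63, 34, 42 and 43 counts in DMSO. In both genes the groups overlapped widely and sal003 replicate 4 was lowest, and neither gene passed the test (edgeR adjusted p = 0.972 for Ddx58 and 0.862 for Dhx58). Ddx60, Ddx4 and Ddx43 failed the filter, with at most 44 counts in any library. Ddx4, or Vasa, and Ddx43 belong to the germ line, as does Ddx25, which passed the filter with 0 to 30 counts in sal003 and 0 to 44 in DMSO and was not called (adjusted p = 0.952).

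Close relatives were compared within each library by their ratio, since a ratio depends little on how the library is scaled. Of 5 pairs, 4 differed between the groups without overlap. Among single genes, 26.8% of all tested had no overlap, and the share among ratios of other gene pairs was not computed. The pairs were chosen with earlier results of these data known. Ddx39 stood at 0.479 of Ddx39b in sal003 and 0.354 in DMSO, with log2 ratios of -1.06 ± 0.138 and -1.50 ± 0.224 (SD, n = 4). Ddx17 stood at 0.392 of Ddx5 in sal003 and 0.566 in DMSO, with log2 ratios of -1.35 ± 0.103 and -0.82 ± 0.223. In sal003 Ddx39 thus stood higher against Ddx39b, and Ddx17 lower against Ddx5.

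Ddx50, which shares its domain layout with Ddx21 and lies 13613 bases from it on the same strand, stood at 0.111 of Ddx21 in sal003 and 0.162 in DMSO. The log2 ratios were -3.17 ± 0.139 and -2.63 ± 0.198. Ddx50 itself had 55.9, 52.4, 58.8 and 57.8 CPM in sal003, against 38.3, 46.6, 55.5 and 64.9 CPM in DMSO, with overlap (0.13 ± 0.15, edgeR adjusted p = 0.631). So of these neighbours Ddx21 passed the test and Ddx50 did not, and their ratio differed. Ddx19a and Ddx19b, copies of the helicase that releases messenger RNA at the cytoplasmic face of the nuclear pore, lie 5387 bases apart on chromosome 8. Ddx19a had 108, 97.8, 100.7 and 109.9 CPM in sal003, against 92.1, 99.2, 89.5 and 87.35 CPM in DMSO. Ddx19b had 31.9, 23.4, 27.75 and 26.0 CPM in sal003, against 29.0, 30.2, 37.5 and 34.9 CPM in DMSO.

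Neither Ddx19a (0.18 ± 0.09, edgeR adjusted p = 0.222) nor Ddx19b (-0.27 ± 0.16, adjusted p = 0.267) passed alone. Their ratio, Ddx19b over Ddx19a, was 0.265 in sal003 and 0.359 in DMSO, with log2 ratios of -1.92 ± 0.156 and -1.48 ± 0.231. The differences in log2 ratio were 0.43 for Ddx39 over Ddx39b, -0.53 for Ddx17 over Ddx5, -0.54 for Ddx50 over Ddx21 and -0.44 for Ddx19b over Ddx19a. Without DMSO replicate 2 they were 0.32, -0.63, -0.56 and -0.52 in the same order. With all libraries each gave p = 0.0286 in a two-sided exact permutation test, the smallest that 4 libraries against 4 allow. After Benjamini-Hochberg adjustment over the 5 pairs the permutation p was 0.0357 for each. The pairs were chosen with results known, and Ddx39, Ddx5 and Ddx21 had been called without overlap in the same libraries. These p-values therefore describe the separation and are not independent evidence. Dhx58 over Ddx58 had log2 ratios of -0.18 ± 0.941 in sal003 and -0.50 ± 0.940 in DMSO, a difference of 0.32 (exact permutation p = 0.629). The sources used here do not say how reads that match both members of a pair were counted, so ratios of near-identical copies are uncertain.

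**Figure D3:**
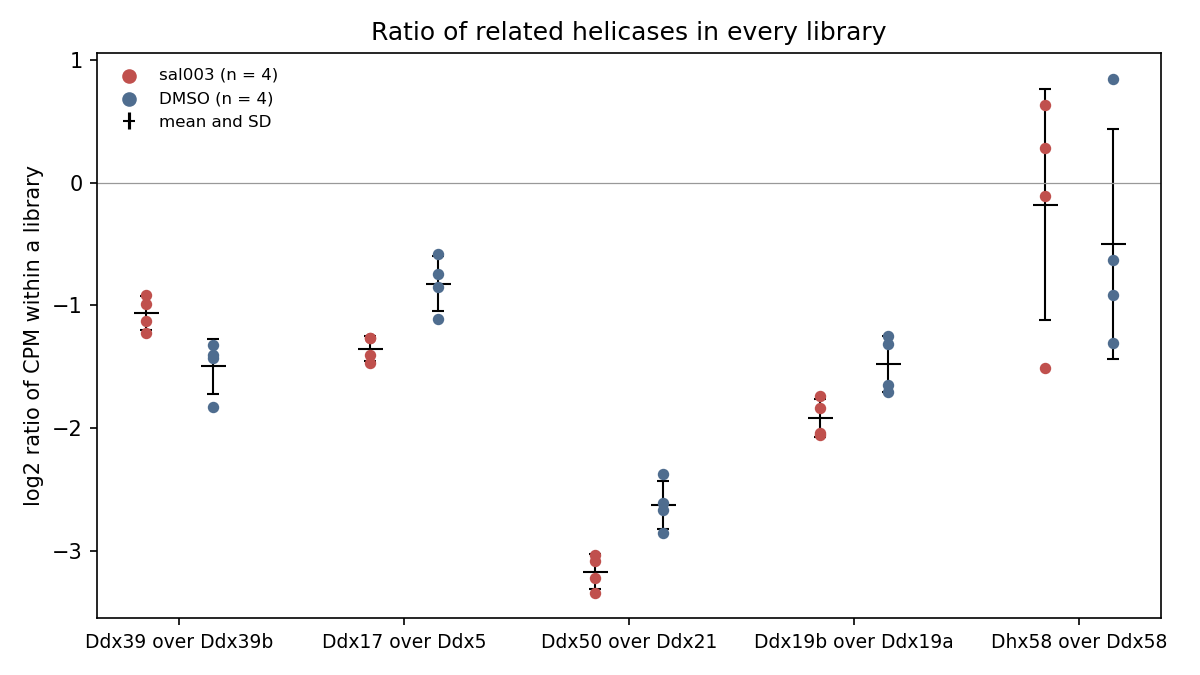
Log2 ratio of CPM within each library for the 5 pairs of related helicases, sal003 left of DMSO, with the mean and SD of each group (n = 4). The groups are separate for Ddx39 over Ddx39b, Ddx17 over Ddx5, Ddx50 over Ddx21 and Ddx19b over Ddx19a and overlap for Dhx58 over Ddx58.

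Levels per length of exon give the order among members. In CPM per kb, Ddx5 was first in both groups, at 129.6 in sal003 and 106 in DMSO. Ddx3x (100.4), Ddx21 (98.7) and Ddx39b (78.75) followed in sal003, whereas Ddx39b (78.1), Ddx3x (64.4) and Ddx21 (60.8) followed in DMSO. Dhx15 took place 5 in sal003 (56.3) and place 6 in DMSO (40.9). Ddx17 took place 8 in sal003 (38.4) and place 5 in DMSO (45.3). Ddx51 stood at place 35 in sal003 and place 25 in DMSO. These places are descriptions, and neighbours in the order were not tested against each other.

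Other factors of ribosome assembly were read from the same fit. Over all tested genes 10.6% were higher and 12.2% lower, the shares to set beside the counts of each list. Of 42 genes in a list for the small subunit processome, the particle that forms on nascent ribosomal RNA, 21 rose (50%) and 21 did not pass. The median log2 fold change was 0.37. Its scaffold protein Utp20 averaged 289.8 ± 11.4 CPM in sal003 and 172 ± 10.1 CPM in DMSO (0.75 ± 0.08, edgeR adjusted p = 5.36e-06). Wdr43 stood at 235 ± 6.35 CPM in sal003 and 124 ± 23.4 CPM in DMSO. Nop56, a core protein of box C/D small nucleolar particles, stood at 175 ± 10.2 CPM in sal003 and 94.0 ± 17.2 CPM in DMSO. Whether each listed gene is part of the processome was not checked, Riok1, Riok2, Nob1, Ltv1 and Tsr1 included. The 50% is therefore a share of the list.

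Of 37 genes in a list for large subunit assembly 18 rose (48.6%), 1 fell (2.7%) and 18 did not pass, again with a median of 0.37. Nucleolin (Ncl) averaged 1650.3 ± 43.5 CPM in sal003 and 736 ± 134 CPM in DMSO, and nucleophosmin (Npm1) 887 ± 55.9 CPM in sal003 and 405 ± 72.8 CPM in DMSO. Mdn1, an ATPase that strips assembly factors from the particle, averaged 475 ± 26.2 CPM in sal003 and 304 ± 17.7 CPM in DMSO. The listed gene that fell was Rrp12 (-0.49 ± 0.13, adjusted p = 0.0124), named after its value was seen. Whether the listed genes act on the large subunit only was not checked, Rrp12 and Ncl included. Leaving out 1 library gave 14 to 25 genes higher in the small subunit list and 10 to 19 in the large subunit list, with 25 and 19 without DMSO replicate 2. The large subunit count was 10 without sal003 replicate 1, 11 without sal003 replicate 3, 11 without DMSO replicate 1 and 12 without sal003 replicate 2. Whether these lists differ from the nucleolar helicases, of which 18.8% rose, was not tested.

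**Figure D4:**
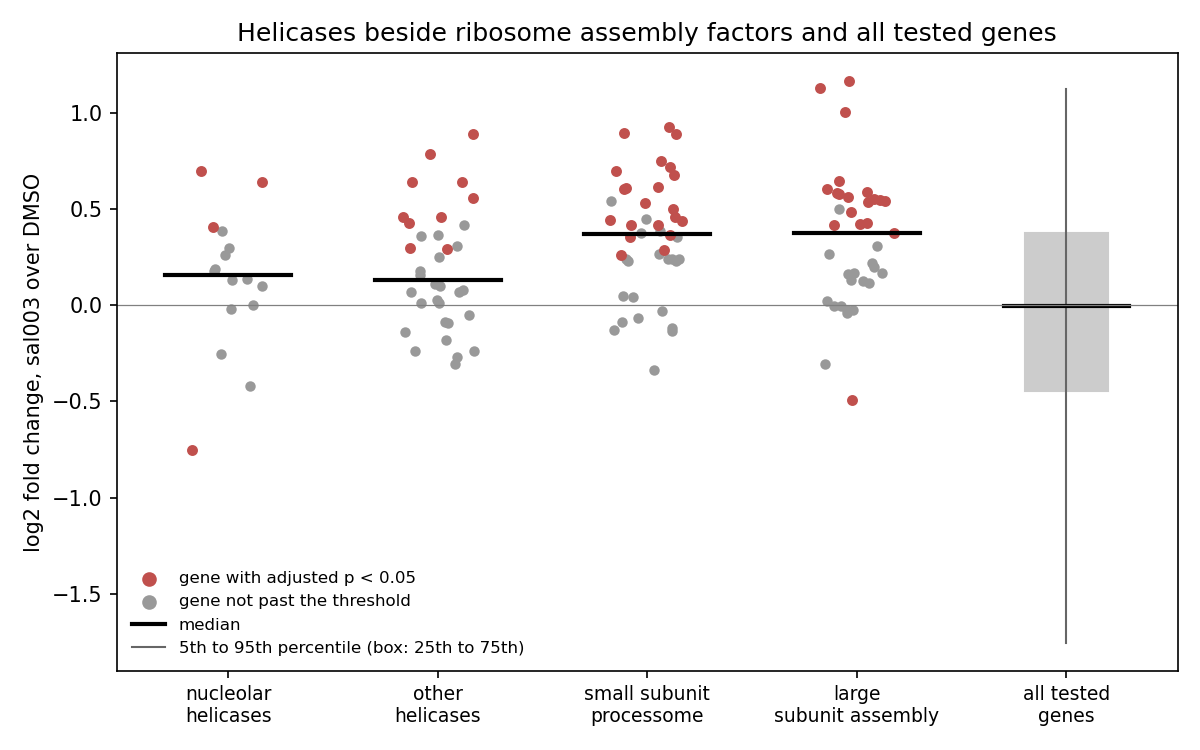
Log2 fold change of sal003 over DMSO for each tested gene of 4 lists, red where the edgeR adjusted p is below 0.05, with the median as a bar; for all tested genes a box spans percentiles 25 to 75 and a line percentiles 5 to 95. The medians of nucleolar and other helicases are 0.16 and 0.13, those of both ribosome assembly lists 0.37 and that of all tested genes -0.0034.

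Of 12 RNA helicases that carry other symbols 2 rose (16.7%, against 10.6% of all tested genes) and 10 did not pass, with a median of -0.02. They were Skiv2l2, the helicase of the nuclear exosome, at 135 ± 15.1 CPM in sal003 and 88.3 ± 12.2 CPM in DMSO (0.61 ± 0.12, edgeR adjusted p = 0.00109), and the initiation factor Eif4a1, whose groups overlapped (0.36 ± 0.12, adjusted p = 0.0419). Without DMSO replicate 1 or 3, or any 1 of the sal003 libraries, 1 was higher. Of 22 helicase cofactors 4 rose (18.2%, against the same 10.6%) and 18 did not pass, with a median of 0.03. Dgcr8, the partner of Drosha, averaged 105 ± 10.5 CPM in sal003 and 60.8 ± 12.8 CPM in DMSO (0.79 ± 0.14, adjusted p = 0.000552). Cnot1, the scaffold that binds Ddx6, averaged 342 ± 11.7 CPM in sal003 and 242 ± 39.2 CPM in DMSO (0.50 ± 0.11, adjusted p = 0.00263). Eif4enif1, another partner of Ddx6, had 0.46 ± 0.10 (adjusted p = 0.00386), while Ddx6 itself did not pass.

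Of 15 interferon response genes 8 could be tested, with a median of -0.43. EdgeR called 0 of them higher and 0 lower, with 0 and 1 at an unadjusted p below 0.05, and limma-voom called 0 and 1. DESeq2 was run without the filter on low counts, and over all 15 genes it called 1 higher and 1 lower. Among the 8, Irf9 was the only gene with a positive edgeR estimate (0.39 ± 0.43, adjusted p = 0.613). The genes of the list summed to 125.9 to 137.9 CPM in sal003 and to 139.5 to 160.4 CPM in DMSO.

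Markers of cell state also differed between the groups. All 10 proliferation markers rose, with a median of 1.05, and summed to 4176 to 4415 CPM in sal003 and 1744 to 2280 CPM in DMSO. All 12 markers of differentiated muscle fell, with a median of -2.43, and summed to 16700 to 19090 CPM in sal003 and 55880 to 79720 CPM in DMSO. Of 8 satellite cell markers Pax7 rose, Cdh15 and Itga7 fell and 5 did not pass, with sums of 1457 to 1656 CPM in sal003 and 1613 to 1947 CPM in DMSO. Their part in the helicase results was not tested.

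Most markers of other cells were low, except Acta2 and Cspg4 in the list of smooth muscle and pericytes. Acta2 averaged 470 CPM in sal003 and 1545 CPM in DMSO, and Cspg4 149 CPM in sal003 and 197 CPM in DMSO. In the same list Pdgfrb averaged 3.57 CPM in sal003 and 6.74 CPM in DMSO. Rgs5, Myh11 and Kcnj8 averaged at most 0.804 CPM in either group. Fibro-adipogenic markers, of which 1 of 6 could be tested and did not pass, summed to 1.04 to 2.46 CPM in sal003 and 0.831 to 4.18 CPM in DMSO, with Dcn, Dpt and Lum at 0 in all libraries. Immune markers, of which 2 of 5 could be tested and did not pass, summed to 2.16 to 4.56 CPM in sal003 and 2.37 to 5.82 CPM in DMSO, with Ptprc and Lyz2 at 0. Endothelial markers, of which 3 of 5 could be tested and did not pass, summed to 2.75 to 6.04 CPM in sal003 and 0.89 to 4.29 CPM in DMSO, with Emcn at 0. Of 4 tested markers of smooth muscle and pericytes out of 6, Acta2 and Cspg4 fell, and the list summed to 529.8 to 715.8 CPM in sal003 and 1644 to 1841 CPM in DMSO. Their part in the helicase results was not tested either.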

How the data were processed

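Per the labels' protocols, the 8 libraries are stranded and were made from satellite cell RNA freed of ribosomal and mitochondrial transcripts. For the sal003 dose, the design and the attributes have µM and the protocol text has mM; 10 µM is used here. The authors deposited whole-number counts per gene over exons. Trimmomatic 0.32, STAR 2.3.0e, featureCounts 1.4.4 and the build mm10 are named in the submitters' processing notes, while the strand and multiple-alignment settings are not given there. Between 75.6% and 83.4% of the counts from 1 to 20 in a library were even, so halved counts were tried as an alternative. Replicate pairs differed beyond counting noise (chi-square per degree of freedom at least 25.3), and no library was treated as a duplicate. Columns were assigned to samples by their names.

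In R 4.3.3, edgeR 4.0.16 was used with filterByExpr (minimum count 10, minimum total 15), TMM scaling and a robust quasi-likelihood fit of condition over the whole table; the code was tested on simulated data. TMM factors were 1.04 to 1.07 in sal003 and 0.905 to 0.958 in DMSO. SE values were obtained from the estimate and its F statistic. Log2 ratios of pairs used a prior of 0.5 CPM and scipy 1.17.1. Coordinates and exon lengths come from GENCODE M21 (37607 of 39017 identifiers found, 96.4%, with all 53 helicases). Levels per library were given for the 5 members of lowest p in each class past the threshold, for pairs of relatives and for further members of each role in order of p, and up to 3 called genes per list were named. The helicases, their roles, the pairs and the lists were chosen with earlier results of these data known.

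Alternatives were DESeq2 size factors, upper-quartile scaling, no filter, at least 10 CPM in 4 libraries, leaving out abundant, mitochondrial and ribosomal RNA genes, the Wald test of DESeq2 1.42.0, limma-voom (limma 3.58.1) with quality weights, adjusted p below 0.01, a test against 1.5-fold, a replicate block, halved counts, each library left out, and Ddx5, Ddx17 and Dhx15 counted as nucleolar. Scaling by library totals was added after seeing the data. Depth gives counting error only, as the labels describe no molecular identifiers.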

Additional observations from a re-analysis of the deposited data

Results flagged for a closer look

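In 6 of 106 groups of 4 libraries 1 library stood apart, with a gap to its neighbour that took more of the group's range than Dixon's test allows; chance gives about 1 group in 20. In sal003, Ddx18 was high in replicate 1 (ratio 0.879; 46.9 CPM against 41.7 to 42.3 CPM). In DMSO, Ddx18 was low in replicate 3 (0.861; 20.7 CPM against 29.4 to 30.8 CPM). Ddx46 was low in DMSO replicate 2 (0.910; 87.3 CPM against 145 to 151 CPM). Dhx33 was low in sal003 replicate 4 (0.835; 77.7 CPM against 88.6 to 90.8 CPM). Dhx35 was high in sal003 replicate 1 (0.864; 29.6 CPM against 22.5 to 23.5 CPM). The nucleolar helicases took 0.110% of the counts in DMSO replicate 1, against 0.114% to 0.115% in the other DMSO libraries (0.896).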

How the results depend on the processing

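The calls of Ddx21, Ddx3x, Dhx9, Ddx51, Ddx11, Ddx39, Ddx18 and Dhx33 held in all 8 fits without 1 library. The 13 helicases whose sign changed under some alternative had main estimates of at most 0.24 in size, and 0 of them were called by edgeR. With a filter of 10 CPM in 4 libraries, and with limma-voom, 2 helicases were lower, 1 of them not nucleolar. Without a filter Dhx15 was lost (adjusted p = 0.0859). At an adjusted p below 0.01, 984 genes, 6 helicases, 4 other helicases and 34 members of the pathway lists were higher. Against a 1.5-fold change 266 genes were higher and 737 lower (1.68% and 4.66%), edgeR called 0 helicases in either direction, 0 of them nucleolar and 0 of the others, and 14 list members were higher. With library totals the median of all genes shifted by 0.18 to 0.17; 2878 genes were then higher and 1365 lower, and 20 helicases were higher, 5 of them nucleolar, with medians of 0.34 for nucleolar and 0.31 for other helicases. With Ddx5, Ddx17 and Dhx15 counted as nucleolar, 5 nucleolar helicases were higher. Leaving out 1 library gave 8 to 14 helicases higher and 1 to 2 lower, 3 to 4 nucleolar higher and 1 to 2 lower, 5 to 10 others higher and 0 to 1 lower, and 40 to 61 list members higher. The medians were then 0.11 to 0.24 for nucleolar and 0.081 to 0.23 for other helicases. The cause of these moves was not tested. The ratios of pairs kept their direction without each library, where 4 against 3 libraries allow no p below 0.0571.

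Libraries with the same replicate number were not treated as pairs in the main fit. The correlations of their deviations were -0.01, 0.07, 0.05 and 0.01, where libraries with different numbers had -0.07 to 0.08. Such values do not show a pairing and cannot exclude one. With the replicate block, 13 helicases were higher and 1 lower, with 1660 genes higher and 1770 lower.

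The sensors and germ line members had at most 192 counts in a library, and counts of the sensors also varied widely between libraries of a group.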
